A study of Drosophila melanogaster with 4 samples.

Results

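The islands described here are 684 short regions of H3K9me3 enrichment scattered along the distal and middle part of the Drosophila melanogaster X chromosome. They were chosen by position alone: clusters of the series-wide list on X whose midpoint lay more than 100 kb from the telomeric end of the arm sequence and at least 3 Mb from its centromeric end. This window ran from 100001 to 19422827 on FlyBase release 5 and was 19.3 Mb long. It held 684 of the 817 clusters on X, with 2 on its telomeric side and 131 on its centromeric side, and 17.4% of the 3941 clusters of the whole list. That every island is enriched follows from its presence in the list and is no result.

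The material was whole embryos of the wild-type strain Oregon-R, aged 14 to 16 h and crosslinked with 1.8% formaldehyde. Chromatin immunoprecipitation with an antibody against histone H3 trimethylated at lysine 9, followed by sequencing (ChIP-seq), gave 2 libraries, replicate 1 and replicate 2. Each had an input library, no values of which were used here. The authors deposited 1 list of enriched clusters per ChIP library and 1 for the set of replicates, and the number of reads behind them is unknown. Whole embryos mix many cell types, so a strong mark in few cells and a weak mark in many cannot be told apart.

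H3K9me3 is the mark of constitutive heterochromatin. It is written by the methyltransferases Su(var)3-9 and Eggless (SETDB1) and bound by the chromodomain of heterochromatin protein 1 (HP1a). In flies it is densest around centromeres, on chromosome 4 and on Y, while the gene-rich arms carry it in isolated stretches, among them transposon insertions. The X arm is known to carry short satellite repeats within its gene-rich part. Genes and repeats under the islands were not examined here, since the gene table at hand is of release 6.

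The islands were narrow, and most scored below the median of the whole list. Their median length was 2031 bp (quartiles 1632 and 2750 bp), and 544 of 684, or 79.5%, were under 3 kb long. The clusters of the single libraries within the same window had median lengths of 2108 bp in replicate 1 and 2074.5 bp in replicate 2. The authors' score of each cluster, whose scale is not stated, ran from 0.222 to 3.44 over the islands with a median of 0.828. The median of the whole series-wide list was 1.34, and only 132 islands (19.3%) reached it. In the per-library lists the medians were 1.12 on the X window against 1.96 over all clusters for replicate 1, and 1.09 against 1.99 for replicate 2. A median below that of the whole list was shared by the same window of the arms 2L, 3L and 3R, where it was lower than on X, at 0.655, 0.695 and 0.646 in the series-wide list. Replicate 1 gave 0.961, 0.977 and 0.912 there, and replicate 2 gave 0.905, 0.945 and 0.924.

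Together the islands occupied 1712 kb, or 8.86% of the window. Replicate 1 marked 6.36% of it with 480 clusters and replicate 2 marked 5.96% with 452, which gives 6.16% ± 0.282 (SD, n = 2). A small number of long islands carried a sizeable part of the marked sequence: the 47 islands of at least 5 kb made up 20.2% of all island bases, and 4 islands reached 10 kb.

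The longest island lay at 17830976 to 17852023 and measured 21048 bp, with a score of 1.76. It joined what the libraries gave as separate clusters. In replicate 1 these were 10803 bp (score 1.46) and 9839 bp (2.27). In replicate 2 there were 3, of 2605 bp (1.54), 4014 bp (1.52) and 10022 bp (2.04). Both libraries therefore shared a strong part of about the same extent at the centromeric side and a weaker part that replicate 2 marked less fully.

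The second longest island, at 10290215 to 10302718 (12504 bp, score 1.11), was also broken up, into 3 clusters in replicate 1 and 2 in replicate 2. The one at 6446066 to 6457862 (11797 bp) was a single cluster in each library. It measured 11074 bp and scored 1.88 in replicate 1, against 11351 bp and 1.97 in replicate 2. The next, at 2452746 to 2462852 (10107 bp), was 1 cluster of 8844 bp in replicate 1 and 2 clusters of 6958 bp and 1444 bp in replicate 2. The other 6, between 8281 and 9358 bp, lay at 6644613, 12198116, 5034254, 14997055, 14889938 and 17999715. All 10 were found in both libraries, and they were spread over the window.

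Of the 10 longest islands 0 were among the 10 with the highest score, where each set is 10 of 684. This depends on the cut at 10. By length the 10 with the highest score ranked 11, 13, 16, 19, 24, 39, 63, 127, 413 and 677. Over all islands length and score rose together, with a Spearman's rho of 0.689. The highest score, 3.44, belonged to an island of 8009 bp at 1521716 to 1529724, with 3.46 in replicate 1 and 3.47 in replicate 2. The second was at 4824271 to 4831156 (6886 bp, score 3.35), with 3.28 in replicate 1 and 3.43 in replicate 2. In both cases each library held 1 cluster over at least 98.4% of the island. An island at 12825796 to 12830040 (4245 bp, score 2.97) had 3.02 and 2.90 in the libraries.

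Further members of these 10 were found in both libraries at 6625104 (3155 bp, 2.97 and 3.58), 2505579 (5477 bp, 2.72 and 2.96), 6917365 (8094 bp, 2.84 and 2.79), 4990006 (7847 bp, 2.70 and 2.76) and 10243017 (7799 bp, 2.81 and 2.62). The libraries lay furthest apart at 6625104. The remaining 2 of the 10 were short and less well supported. One, at 14176366 to 14178275 (1910 bp), had a score of 3.78 in replicate 2 and no cluster in replicate 1. The other, at 7709363 to 7710363, measured 1001 bp, scored 3.06 and overlapped no cluster of either library.

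**Figure D1:**
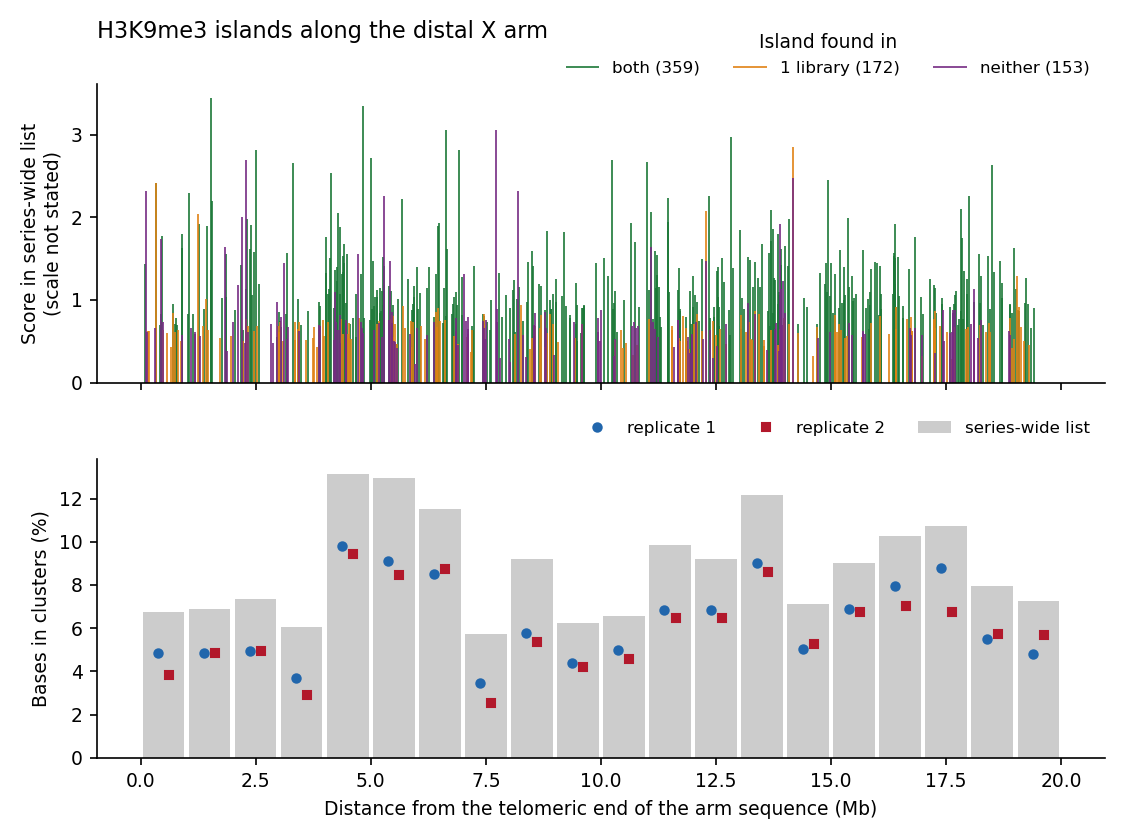
Top, each of the 684 islands as a line at its distance from the telomeric end of the X arm sequence (Mb), with its height the score in the series-wide list, coloured by whether 1 bp or more overlapped clusters of both libraries (359), 1 (172) or neither (153). Bottom, percentage of bases in clusters per 1 Mb in the series-wide list (bars) and in each library (points); the first and last bins are partial, and the libraries peak together at 9.63% on average between 4 and 5 Mb.

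Islands occurred along the whole window, with a density that varied 2.62-fold between 1 Mb bins. Among the 18 bins lying fully inside the window, the number of islands ranged from 21 to 55 with a median of 35.5. Most were counted between 5 and 6 Mb from the telomeric end (55), between 13 and 14 Mb (53) and between 4 and 5 Mb (52), and fewest between 14 and 15 Mb (21). The covered share showed the same relief in both libraries. It was highest between 4 and 5 Mb, at 9.81% in replicate 1 and 9.44% in replicate 2, and lowest between 7 and 8 Mb, at 3.46% and 2.52%. As means these are 9.63% ± 0.261 and 2.99% ± 0.669 (SD, n = 2). The bins were picked as the extremes of this share, so their difference follows in part from the choice. The SD is between libraries and does not measure the spread among bins.

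A stretch from 4 to 7 Mb stood high as a block, with 8.80% ± 0.456 between 5 and 6 Mb and 8.62% ± 0.180 between 6 and 7 Mb (SD, n = 2). The neighbouring bins from 3 to 4 Mb and from 7 to 8 Mb were among the least covered, at 3.30% ± 0.533 and 2.99% ± 0.669. A second high bin, from 13 to 14 Mb, reached 8.82% ± 0.296 and was followed by 5.17% ± 0.163 (SD, n = 2 each). Across the 18 full bins, the shares of the libraries had a Spearman's rho of 0.965, as a description of bins that share both libraries. Replicate 1 was covered more widely in 13 of them.

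The bin from 17 to 18 Mb set the libraries furthest apart, at 8.78% in replicate 1 and 6.75% in replicate 2. Of its 37 islands 9 were found in replicate 1 alone and 1 in replicate 2 alone. The longest island of the window, marked less fully in replicate 2, also lies there.

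The number of islands varied less on a coarser scale. Cut into 3 stretches of 6.44 Mb, the window held 235 islands on the telomeric side, 218 in the middle and 231 on the centromeric side. Their covered shares were 6.16% ± 0.272, 5.49% ± 0.285 and 6.82% ± 0.290 (SD, n = 2 each). The SD is between libraries, and each stretch is a single sequence, so the spread among stretches is not measured. The order of the stretches was the same in both libraries. Median island lengths were 2006, 1998 and 2126 bp, and median scores 0.796, 0.796 and 0.892. The share found in both libraries was 48.5% on the telomeric side, 52.8% in the middle and 56.3% on the centromeric side.

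Consecutive islands were separated by a median gap of 14.4 kb, against a mean of 25.8 kb. The gaps ran from 4 bp to 278 kb, with quartiles of 5.16 and 34.8 kb, and their coefficient of variation was 1.26. Of the 683 gaps 280 (41.0%) were at most 10 kb and 55 (8.05%) at most 1 kb. In the lists of the libraries, which hold fewer clusters, the median gaps were 21.8 kb in replicate 1 and 24.3 kb in replicate 2, with coefficients of variation of 1.20 and 1.15. In all 3 lists the median gap was 0.56 to 0.60 of the mean, which describes many short gaps with a tail of long ones.

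The 5 longest gaps, free of islands, lay at 2562396 to 2840674 (278 kb), 9640474 to 9895161 (255 kb), 7241343 to 7437161 (196 kb), 10825588 to 10991768 (166 kb) and 16095678 to 16256981 (161 kb). Those at 9640474 and 10825588 held no base of a cluster of either library. The gaps at 2562396, 7241343 and 16095678 held only the outer 58, 17 and 14 bp of a replicate 2 cluster, and none of replicate 1. In all, 26 gaps were longer than 100 kb and summed to 3.67 Mb, 19.0% of the window. Counted in 193 windows of 100 kb, 11 held no island, 95 held 1 to 3, 68 held 4 to 6 and 19 held 7 or more. None of the 11 empty windows was touched by a cluster of either library.

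When islands with a gap of at most 10 kb were counted as 1 group, 442 of the 684 (64.6%) fell into 162 groups of 2 or more, and 242 stood alone. Most groups were small: 103 were pairs, 31 had 3 islands, 14 had 4 and 14 had 5 or more. Their median span was 11.8 kb. With the same limit the library lists gave 98 groups holding 50% of the clusters in replicate 1 and 92 holding 48.9% in replicate 2. Fewer clusters leave wider gaps, so the counts of the 3 lists are not independent of their sizes.

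The largest group spanned 68.7 kb at 16349711 to 16418381. It held 11 islands that covered 59.5% of the span. Replicate 1 had 11 clusters there, covering 52.1%, and replicate 2 had 9, covering 44.9%. From the telomeric side the islands measured 2227, 3417, 3648, 6764, 4371, 4292, 2783, 7787, 1978, 2370 and 1226 bp. The longest of these, at 16391338 to 16399124, had the highest score of the group at 1.92. Replicate 1 scored it 2.08 and replicate 2 1.81. The 2 islands missing from replicate 2 were the 2 shortest, at 1978 and 1226 bp, with scores of 0.747 and 1.10 in replicate 1. In 4 places the gap between neighbours was under 1 kb (80, 236, 640 and 904 bp).

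The other large groups were sparser. The second, at 13857317 to 13920137 (62.8 kb), held 10 islands covering 34.6%, with 6 clusters in replicate 1 (26.3%) and 7 in replicate 2 (23.8%). It lies in the densely marked bin from 13 to 14 Mb. Another, at 5433255 to 5482794 (49.5 kb), held 9 islands covering 31.6%, but only 2 of these were found in both libraries. Replicate 1 covered 23.8% of it with 6 clusters and replicate 2 covered 11.1% with 3.

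The remaining groups of the 5 held 6 islands each. That at 7437162 to 7470613 (33.5 kb) was covered to 23.2% in replicate 1 and 11.6% in replicate 2. That at 5178897 to 5211823 (32.9 kb) was covered to 24.7% and 29.5%, the only one of the 5 where replicate 2 was ahead.

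Grouped and solitary islands were set side by side. Median lengths were 2061 bp in groups and 1998 bp alone, and median scores 0.847 and 0.780. The share found in both libraries was 51.6% (228 of 442, 95% interval 46.8 to 56.3%) in groups and 54.1% (131 of 242, 47.6 to 60.5%) alone. These intervals overlap widely. The share found in neither library differed more, at 24.7% (109 of 442, 20.7 to 29.0%) in groups and 18.2% (44 of 242, 13.5 to 23.6%) alone, with intervals that also overlap. Scores of consecutive islands were nearly unrelated, with a Spearman's rho of 0.043 over all 683 neighbouring pairs and 0.11 over the 280 pairs at most 10 kb apart.

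**Figure D2:**
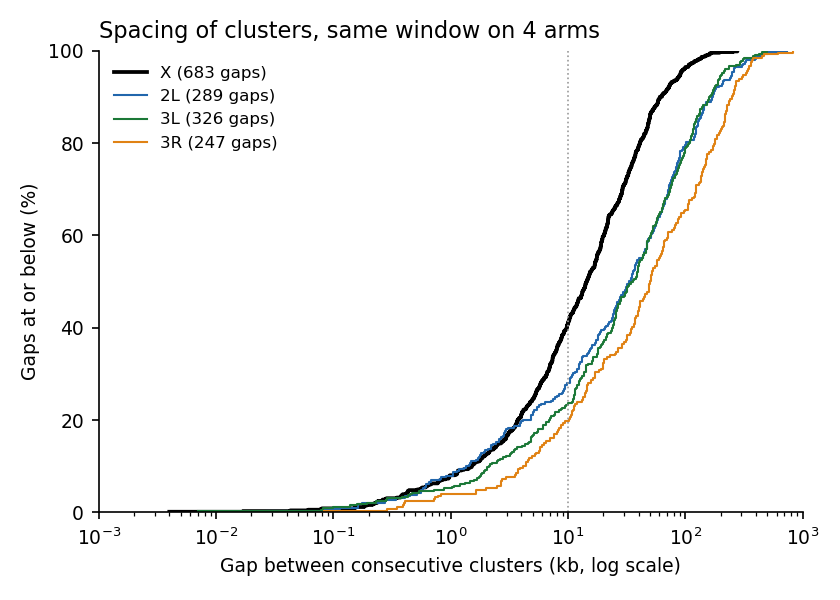
Cumulative percentage of gaps between consecutive clusters of the series-wide list at or below a given length (kb, log scale) for X and for the same window of 2L, 3L and 3R; the dotted line marks the 10 kb limit used for groups. The X curve reaches 50% at 14.4 kb, and the others at 33.4, 35.2 and 50.5 kb.

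Not all islands were found in the libraries. An overlap of 1 bp or more was present with both for 359 of 684 islands, or 52.5% (95% interval 48.7 to 56.3%). Over all 3941 clusters of the series-wide list the same share was 61.1%, which lies above that interval. Another 100 islands (14.6%) overlapped replicate 1 alone and 72 (10.5%) replicate 2 alone. The remaining 153, or 22.4% (95% interval 19.3 to 25.7%), overlapped neither, close to the 20.1% of the whole list. Intervals here are exact binomial ones and cover counting error only. By length, 69.9% of all island bases belonged to islands found in both and 12.1% to those found in neither. In the other direction, only 4 of 480 replicate 1 clusters of the window and 3 of 452 of replicate 2 had no counterpart in the series-wide list.

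The share found in both libraries was higher among longer islands. A longer island meets an overlap of 1 bp more easily. The series-wide list was made for the set of these same libraries, so the overlap is no independent support. Of the islands under 2 kb 9.91% (32 of 323) were found in both libraries, of those between 2 and 3 kb 85.5% (189 of 221), of those between 3 and 5 kb 98.9% (92 of 93) and of those of at least 5 kb 97.9% (46 of 47). The exception among the last was an island at 11690109 to 11695327 (5219 bp, score 0.534), found in replicate 1 alone with a score of 0.917; it was singled out after its values were seen. Of the 153 islands found in neither library 151 were under 2 kb and 78 under 1301 bp, which is the length of the shortest cluster in the library lists on this window. An island below that length overlapped both libraries in 0 of 98 cases, which allows up to 3.69% (exact 95% limit). The part of this difference in minimum length in the share found in neither was not tested. Among islands of at least 1301 bp, a limit chosen after the data were seen, 61.3% were found in both.

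The 5 longest islands found in neither library lay at 10723146 (2137 bp, score 0.732), 3119914 (2010 bp, 1.44), 17691236 (1998 bp, 0.874), 7019267 (1993 bp, 1.31) and 13998387 (1992 bp, 0.843).

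Score followed support less simply than length did. The share found in both libraries was 4.26% (2 of 47) below a score of 0.5, 36.1% (143 of 396) from 0.5 to 1, 92.5% (136 of 147) from 1 to 1.5 and 91.5% (54 of 59) from 1.5 to 2. It then fell back to 68.6% (24 of 35, 95% interval 50.7 to 83.1%) at scores of 2 and above. That top class was of 2 kinds. Its 27 islands of at least 2 kb measured 2276 to 8281 bp, and 24 of them were found in both libraries and 0 in neither. Its 8 islands under 2 kb measured 1001 to 1966 bp, and 0 were found in both and 7 in neither.

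Score did not rise evenly with length. The median score was 0.728 for the 98 islands of 1001 to 1300 bp, 0.578 for the 64 of 1301 to 1600 bp, 0.629 for the 162 above that and up to 2000 bp, and 0.966 for the 221 above 2000 and up to 3000 bp. It reached 1.49 for those of at least 5 kb. Over all islands Spearman's rho of length and score was 0.689, as a description across islands. Exactly 1001 bp, the shortest length, was measured for 11 islands, of which 9 overlapped neither library. The 4 highest scores of these 11 were 3.06, 2.70, 2.32 and 2.32, at 7709363, 2293940, 105227 and 8188475; the rest had scores from 0.661 to 1.13.

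**Figure D3:**
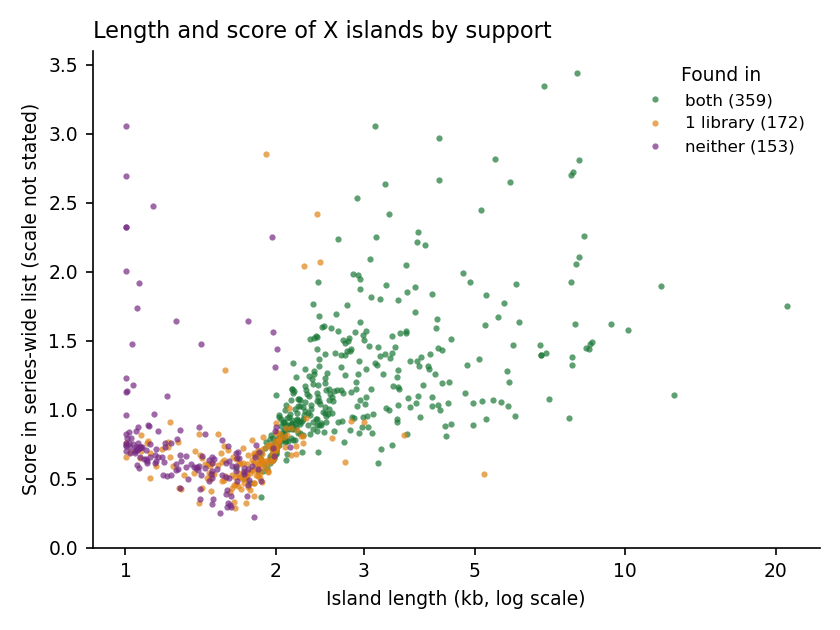
Length (kb, log scale) and series-wide score of each of the 684 islands, coloured by whether clusters of both libraries, of 1 or of neither overlapped it. Islands of 2 kb and above are nearly all found in at least 1 library, while the column at the left edge, at 1001 bp and just above, reaches a score of 3.06 without support in either.

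Where an island matched 1 cluster in each library, the positions in the libraries were compared. Both clusters had to overlap the same island, which limits in advance how far apart they can lie. This held for 327 of the 684 islands, and the others are left out here. The midpoints differed by a median of 93 bp, the starts by 114 bp, the ends by 119 bp and the lengths by 195 bp. For 9 in 10 of these islands the midpoints were within 410 bp. Their median score was 1.20 in replicate 1 and 1.14 in replicate 2, against 1.07 for the deposited set of replicates. The score of replicate 2 minus that of replicate 1 had a median of -0.060 and an SD of 0.237 over islands, and replicate 2 was the higher in 135 of the 327. Spearman's rho of the 2 scores was 0.777. Islands share their libraries and are not replicates, so no p-value is given. Among islands found in both libraries, clusters covered a median of 91.8% of the island in replicate 1 and 88.9% in replicate 2.

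**Figure D4:**
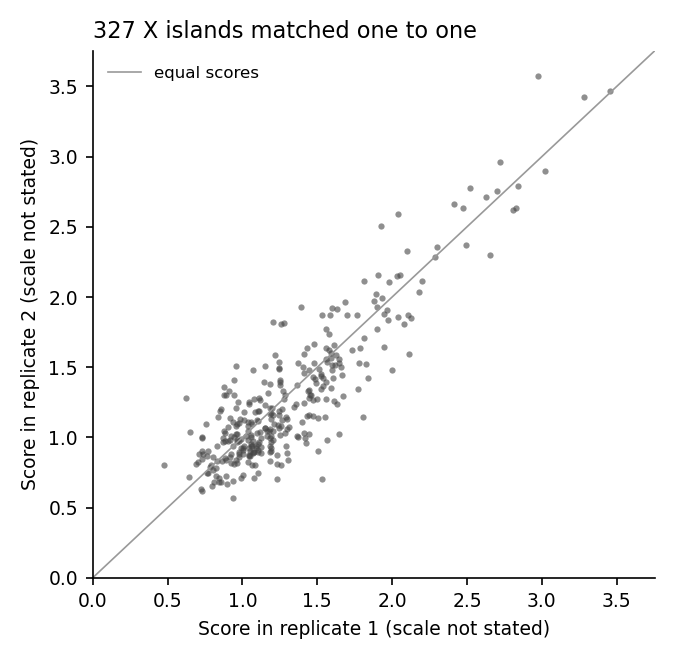
Score in replicate 1 against score in replicate 2 for the 327 islands that matched 1 cluster in each library, with the line of equal scores. Points scatter around the line by an SD of 0.237 and their median difference, replicate 2 minus replicate 1, is -0.060.

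The X window was more densely set with clusters than the same window of the autosomal arms 2L, 3L and 3R. The arm 2R was not compared. The window, at least 3 Mb from the centromeric end and over 100 kb from the other, held 35.4 clusters per Mb on X, 15.2 on 3L, 14.6 on 2L and 10.0 on 3R in the series-wide list. Replicate 1 gave 24.8, 9.65, 9.09 and 6.21 per Mb in the same order, and replicate 2 gave 23.4, 9.28, 8.24 and 5.48. X exceeded 3L by 2.55-fold ± 0.037, 2L by 2.79-fold ± 0.076 and 3R by 4.13-fold ± 0.188 (SD over the libraries, n = 2 each). The excess is larger than the spread between libraries, but each arm is a single sequence, so no test across arms is possible. The sex of the embryos is not among the sample labels used here. The copy number of X against the autosomes was not taken into account. Lengths were similar, with medians of 2031 bp on X, 1966 bp on 3L, 1944.5 bp on 2L and 1865 bp on 3R. In the series-wide list 47 of 684 clusters on X were at least 5 kb, 19 of 327 on 3L, 18 of 290 on 2L and 20 of 248 on 3R. Replicate 1 gave 26 of 480, 14 of 207, 13 of 181 and 14 of 154 in the same order. Replicate 2 gave 29 of 452, 14 of 199, 14 of 164 and 13 of 136. As a share of its clusters 3R was highest in each list, and X was lowest in both libraries.

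The excess of X differed between score classes, except over 3L in the series-wide list, where it was nearly level. Clusters with a score of at least 1 include those of at least 2. Within the library lists, X over 2L was 4.09-fold ± 0.113 for clusters with a score of at least 1, and 2.19-fold ± 0.103 for those of at least 2. Against 3R it was 6.10-fold ± 0.040 and 4.60-fold ± 0.151 (SD, n = 2 each). Against 3L it was 3.41-fold ± 0.018 and 4.05-fold ± 0.740, a difference within the SD. At scores from 0.5 to 1 X led by less, at 1.88-fold ± 0.213 over 2L, 1.80-fold ± 0.043 over 3L and 2.86-fold ± 0.504 over 3R. The order of these classes was not that of the series-wide list. The same limits take unlike parts of the lists, so the classes are not directly comparable. On X a score of at least 1 was reached by 35.2% of series-wide clusters, 65.6% in replicate 1 and 61.7% in replicate 2. In the series-wide list X over 2L was 2.60-fold at scores from 0.5 to 1, 3.71-fold at 1 and above and 1.80-fold at 2 and above. Over 3L it was 2.63-, 2.76- and 2.59-fold, and over 3R 4.17-, 4.42- and 2.64-fold. Below a score of 0.5 the series-wide list held 47 clusters in 19.3 Mb of X, against 66 in 19.9 Mb of 2L. It held 63 in 21.4 Mb of 3L and 56 in 24.8 Mb of 3R. In that class X was sparser than 2L and 3L and slightly denser than 3R. The counts behind the highest limit in the libraries are small, with 33 and 35 clusters on X, 15 and 17 on 2L, 8 and 11 on 3L and 9 and 10 on 3R in replicates 1 and 2.

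**Figure D5:**
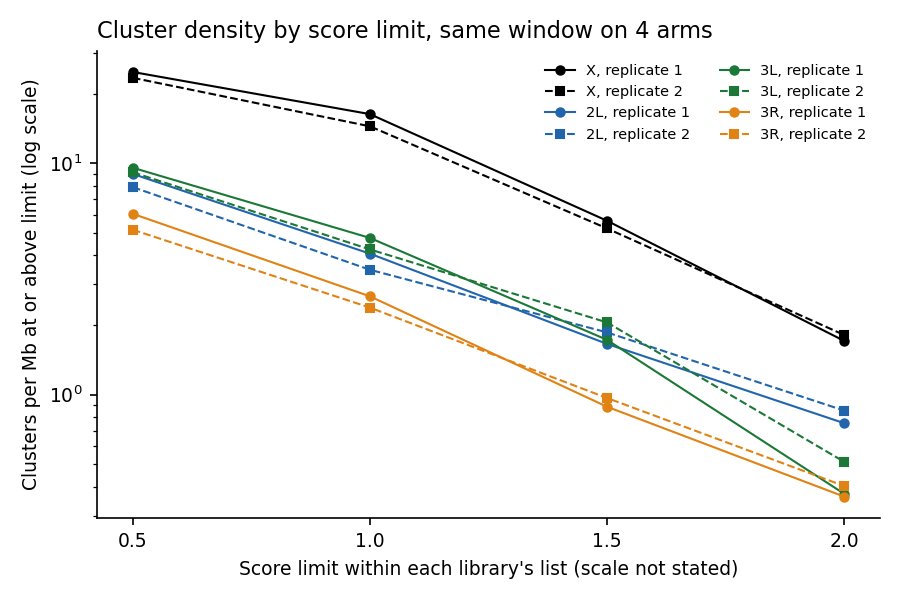
Clusters per Mb (log scale) with at least the given score, within each library's own list, for the same window of X, 2L, 3L and 3R; circles and solid lines are replicate 1, squares and dashed lines replicate 2. X lies above the 3 other arms at each of the 4 limits in both libraries.

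Spacing and support on the other arms were set beside those of X. Median gaps were 33.4 kb on 2L, 35.2 kb on 3L and 50.5 kb on 3R, and the coefficients of variation 1.40, 1.24 and 1.20, on both sides of the 1.26 of X. With the 10 kb limit, 46.6%, 40.1% and 35.1% of clusters fell into groups there, against 64.6% on X, where the gaps are shorter. Both libraries held 45.5% (95% interval 39.7 to 51.4%) of the 2L clusters, 46.2% (40.7 to 51.7%) of those of 3L and 44.0% (37.7 to 50.4%) of those of 3R. The interval for X, 48.7 to 56.3%, overlaps each of these. By point values, the place of X differed between score classes. Below 0.5 X had the lowest share of the 4 arms, at 4.26% (2 of 47, 95% interval 0.5 to 14.5%). The others were 12.1% on 2L (8 of 66, 5.4 to 22.5%), 9.52% on 3L (6 of 63, 3.6 to 19.6%) and 12.5% on 3R (7 of 56, 5.2 to 24.1%). From 0.5 to 1 X was again lowest, at 36.1% (31.4 to 41.1%) against 41.4% (33.6 to 49.5%), 43.7% (36.1 to 51.6%) and 40.2% (31.4 to 49.4%). In both classes the interval of X overlaps that of each other arm. From 1 to 1.5 the shares were 92.5% on X, 94.1% on 2L, 88.2% on 3L and 95.0% on 3R.

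In the upper classes X was close to 2L and above 3L and 3R. From 1.5 to 2 both libraries held 91.5% on X (54 of 59, 95% interval 81.3 to 97.2%) and 92.3% on 2L (12 of 13, 64.0 to 99.8%). On 3L it was 71.0% (22 of 31, 52.0 to 85.8%) and on 3R 69.2% (9 of 13, 38.6 to 90.9%). At scores of 2 and above they held 68.6% on X (24 of 35, 95% interval 50.7 to 83.1%), 75% on 2L (15 of 20, 50.9 to 91.3%), 33.3% on 3L (5 of 15, 11.8 to 61.6%) and 35.3% on 3R (6 of 17, 14.2 to 61.7%). In both classes the interval of X overlaps that of each other arm.

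At the position limits, the first island inside the telomeric one was at 98086 to 102381 (4296 bp, score 1.43, found in both libraries). The nearest cluster outside was at 21058 to 22748 (1691 bp, score 0.533, found in neither). At the centromeric limit the last island inside was at 19403066 to 19405215 (2150 bp, score 0.896, found in both), and the first cluster outside at 19443063 to 19444744 (1682 bp, score 0.726, found in replicate 2 alone).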

How the data were processed

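The submitters' processing notes name Bowtie 0.12.7 for the alignment. Coordinates follow FlyBase release 5, per the file headers. The authors deposited lists of regions of significant enrichment with a score per cluster; which caller and threshold were used, what the score's scale is and how replicates were combined is not given in the sources used here. Scores were compared within a list or between libraries for matched islands. Some library scores and score classes were also set beside those of the series-wide list, without a known common scale. Depth is unknown.

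Computed here in Python 3.11.15 (numpy 2.4.6, pandas 2.3.3, scipy 1.17.1, matplotlib 3.10.9): membership by midpoint, overlap of at least 1 bp, edge-to-edge gaps, groups with gaps of at most 10 kb, and bases covered. Means ± SD are over the 2 ChIP libraries, which the labels do not call separate collections, so the spread may be technical. Intervals are exact Clopper-Pearson at 95%. The functions recovered 5 of 5 known quantities on 500 simulated islands. No hypothesis test was made.

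Members and measures were chosen with earlier results of these data known. Named were the 10 longest and 10 highest-scoring islands, the 5 largest groups, the 5 longest gaps, extreme 1 Mb bins, the islands at the position limits and the 5 longest found in neither library. Coordinates of the release 6 gene table were not used, and no sequence is shown.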

Additional observations from a re-analysis of the deposited data

How the results depend on the processing

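Of 54 alternative values 17 stayed within the SD of the libraries (for counts, within 1.5 times), 37 moved and 0 reversed. A reversal was defined only for the densities of X over 2L, 3L and 3R. X stayed denser than these arms under each alternative run on density. Those were the score limit, the joining, each library alone and the window ending 5 Mb from the centromeric end. Keeping only clusters at or above their list's median score left 132 islands in 18 groups holding 30.3% of them, of median length 3310 bp and median gap 85.1 kb. The covered share was then 0.849%, the share found in both libraries 20.5%, and the density 3.16-fold that of 2L, 2.19-fold that of 3L and 4.03-fold that of 3R. The list medians are higher in the libraries than in the series-wide list, so that limit lowers the share by construction. Joining clusters within 1 kb moved the median length to 2092 bp, the median gap to 17.1 kb, and gave 58.0% of islands in groups and 2.25-fold the density of 3L. Gap limits of 5 and 20 kb put 42.0% and 83.5% of islands in groups. Islands of at least 2 kb had a median score of 1.09, and of those of at least 1301 bp (added after the data were seen) 61.3% were found in both. With 1 library left out, the other gave 452 to 480 clusters, median lengths of 2074.5 to 2108 bp, a median score of 1.09 to 1.12, a median gap of 21.8 to 24.3 kb, 92 to 98 groups holding 48.9 to 50.0%, and densities of 2.73 to 2.84, 2.52 to 2.57 and 4.00 to 4.27 times those of 2L, 3L and 3R; 63.0 to 67.1% of islands overlapped the remaining library. The cause of the shifts not fixed by construction was not tested. No paired analysis was possible because only the ChIP libraries came with values and no test was made. Unknown read depth limits what the absence of a cluster can show.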

Other observations

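Scores were not all distinct. The 684 islands held 646 distinct scores, and 67 islands shared theirs with at least 1 other; on the same window replicate 1 had 429 distinct scores over 480 clusters and replicate 2 had 411 over 452. The pair of 1001 bp islands at 105227 and 8188475, 8.08 Mb apart, had the same score of 2.32. In the whole series-wide list 69 clusters measured exactly 1001 bp.

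The short, high-scoring island at 14176366 (1910 bp), found in replicate 2 alone with a score of 3.78, had a neighbour at 14178706 to 14179840 (1135 bp, score 2.47) that overlapped neither library. These islands were singled out after their values were seen.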
